A study of Rattus norvegicus with 8 samples.

Results

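The transcripts described here are the long noncoding RNAs (lncRNAs) whose identifier in the deposited lncRNA table starts with ENSRNOT, that is, rat transcripts named by the Ensembl annotation. There were 881 of them among the 24300 transcripts of that table. The remaining rows were 20103 transcripts with NONRATT identifiers and 3316 with MSTRG identifiers. Membership was set by the identifier alone and used no measured value.

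The study sequenced RNA from the thoracic aorta of rats aged 7 to 8 weeks. One group of 4 libraries came from control Wistar rats and the other group of 4 from GK (Goto-Kakizaki) rats, an inbred line with spontaneous diabetes that was derived from Wistar stock. The groups were taken from the sample titles, since another label field, the source name, reads GK for all 8 samples, controls included. No drug or transgene is named for either group. Libraries carry the numbers 7 to 10 in each group, and they are called control 7, GK 7 and so on below. Strain and diabetes are the same split of the libraries and cannot be told apart. The p-values measure the spread between these libraries, since the labels do not say more of how the replicates were obtained.

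Long noncoding RNAs are transcripts without a known protein product. Some are structural parts of ubiquitous ribonucleoprotein machines, such as the RNA of RNase MRP, which cuts precursor ribosomal RNA, 7SK, which holds the elongation kinase P-TEFb inactive, and 7SL, the scaffold of the signal recognition particle. Others lie between or beside protein-coding genes, are spliced and polyadenylated like messenger RNAs, and mostly have low levels that depend on the tissue. Tug1 and Meg3 are well-known examples of this kind.

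RefSeq holds no sequence under the identifiers of these transcripts, so the stretches below are the 250 bases before the RefSeq start of 4 genes at loci on which the results turn. Ccdc107 is shown because the RNase MRP transcript lies 296 bases from it, Tug1 because a pair of the transcripts lies where RefSeq places it, and Pkdrej and Ttc38 because they flank a transcript that was higher in GK. Sequences are from RefSeq on build GRCr8, read 5′ to 3′ on the strand of the gene. They lie on GRCr8 at chr5:62545100-62545349 (plus strand) for Ccdc107, chr14:82750535-82750784 (minus strand) for Tug1, chr7:118795314-118795563 (minus strand) for Pkdrej and chr7:118804905-118805154 (plus strand) for Ttc38. Capitals mark matches, on either strand, to the octamer ATGCAAAT, the TATA box TATAAA, the CCAAT box CCAAT and the GC box GGGCGG.
Ccdc107: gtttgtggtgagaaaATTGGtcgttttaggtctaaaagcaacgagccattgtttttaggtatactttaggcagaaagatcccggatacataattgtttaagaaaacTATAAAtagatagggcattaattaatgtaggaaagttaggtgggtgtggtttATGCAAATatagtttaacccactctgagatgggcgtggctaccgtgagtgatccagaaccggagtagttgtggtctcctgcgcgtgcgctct
Tug1: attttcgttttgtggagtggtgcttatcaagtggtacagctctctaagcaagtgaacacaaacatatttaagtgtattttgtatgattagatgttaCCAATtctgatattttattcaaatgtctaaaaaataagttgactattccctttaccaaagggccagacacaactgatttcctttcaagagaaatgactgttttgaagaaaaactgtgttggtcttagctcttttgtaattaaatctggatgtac
Pkdrej: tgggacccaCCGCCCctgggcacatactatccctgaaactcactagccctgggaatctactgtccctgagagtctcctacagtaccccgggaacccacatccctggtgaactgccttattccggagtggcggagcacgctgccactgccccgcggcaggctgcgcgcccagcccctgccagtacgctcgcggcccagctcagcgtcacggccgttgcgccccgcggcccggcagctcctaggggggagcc
Ttc38: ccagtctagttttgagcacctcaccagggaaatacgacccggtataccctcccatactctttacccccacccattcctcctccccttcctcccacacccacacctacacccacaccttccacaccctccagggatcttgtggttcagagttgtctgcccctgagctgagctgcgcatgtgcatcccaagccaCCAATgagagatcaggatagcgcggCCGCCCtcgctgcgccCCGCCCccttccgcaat

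The stretch before Ccdc107 held 1 octamer, 92 bases before the start, 1 TATA box and 1 CCAAT box. Among the 33469 RefSeq windows of the same length, 1.56% held the octamer, 12.9% the TATA box, 34.0% the CCAAT box and 30.5% the GC box. Upstream of Tug1 there was 1 CCAAT box and no other match. Pkdrej had 1 GC box, and Ttc38 had 1 CCAAT box and 2 GC boxes. These matches are letters in a window and were not tested as binding sites.

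Depth was modest in the lncRNA table. Its total counts ran from 1185872 in control 8 to 2031376 in control 10, while the gene table held 11760397 to 16266151 counts per library. A count of 3 was worth between 1.45 and 2.49 CPM, the usual unit of counts scaled to the library total. CPM of a transcript refers to the lncRNA table, and CPM of a gene, the markers included, to the gene table. Markers of contractile smooth muscle, the main cell of the aortic wall, were present in all libraries, and all 6 of 6 listed genes were found, with summed levels of 4584 to 12275 CPM in controls and 2324 to 6381 CPM in GK. The 5 listed brown adipocyte genes summed to 500 to 2886 CPM in controls and 1403 to 4825 CPM in GK, and the 5 general adipocyte genes to 5002 to 7804 against 6786 to 15001 CPM. The 5 fibroblast genes summed to 2980 to 6286 CPM in controls and 790 to 3068 CPM in GK. The 5 skeletal and cardiac muscle genes summed to 11209 CPM in GK 9, against 2.68 to 1304 CPM in the other libraries, so GK 9 stands apart in this sum. The skeletal gene Myh1 had 8279 CPM in GK 9, where the cardiac gene Myh6 had 3.94 CPM. Myh6 had 317 CPM in control 7, 526 CPM in GK 7 and 1073 CPM in GK 8, and at most 0.647 CPM in the remaining libraries. The 4 endothelial genes found of 5 listed summed to 468 to 734 CPM in controls and 719 to 938 CPM in GK, the 4 macrophage genes to 360 to 797 against 222 to 300 CPM, and the 4 nerve and Schwann cell genes to 80.9 to 554 against 275 to 928 CPM. Of all these markers Kdr and Cidec rose and Lmod1, Col1a1, Dpt and Lyz2 fell in edgeR's test. No listed gene that was found had 0 counts in all libraries. In bulk tissue, fewer cells of a type and less RNA per cell cannot be told apart.

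Most of the Ensembl transcripts were scarce in the aorta. Their median length was 795 bases and their median level was 1.07 CPM over the 8 libraries. Per kilobase of listed length the median was 1.47 CPM, against 7.15 for the NONRATT and 15.04 for the MSTRG transcripts. Of the 881, 455 averaged at least 1 CPM, 139 at least 10 CPM and 22 at least 100 CPM. Fewer than 10 counts over all libraries were found for 357 transcripts. Counts in every library were found for 281 transcripts (31.9%), against 70.4% of NONRATT and 76.2% of MSTRG transcripts. These shares are descriptions of 1 set of 8 libraries and carry no test. How each class of transcripts was chosen for the table was not examined, so the shares do not rank the annotations.

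The number of Ensembl transcripts at 1 CPM or more was similar in the groups. It was 478, 397, 494 and 400 in control 7 to 10 and 430, 453, 541 and 400 in GK 7 to 10. The group means were 442 ± 51.0 and 456 ± 60.7 (SD, n = 4 each). The groups overlapped, and the difference of 13.8 transcripts gave p = 0.771 in a two-sided exact permutation test over 70 splits, whose smallest possible p is 0.0286 (adjusted p = 0.771 over 2 tests). GK 9 had the highest number. Without it the mean difference was -14.6, without control 8 it was -1.33 and without control 10 it was -0.33.

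A set of 3 structural RNAs held most of the counts of these transcripts. ENSRNOT00000090903 has the interval of the gene row named RNase_MRP (chromosome 5, 58994682 to 58994953, 272 bases), ENSRNOT00000079055 that of a row named 7SK (chromosome 8, 85480292 to 85480622, 331 bases), and ENSRNOT00000088597 that of LOC102723236, described in the gene table as a 7SL RNA (chromosome 6, 91680229 to 91680528, 300 bases). Coordinates are those of the deposited tables, for which the sources used here name no build. These 3 RNAs together took between 49.7% and 75.7% of a library's counts on Ensembl transcripts. The gene table lists 98 rows named 7SK and 17 named Metazoa_SRP, the name used for 7SL-like copies. The sources used here do not say how reads were divided among such copies, so the levels of 7SK and 7SL are uncertain. RNase_MRP names 1 row, but its transcript overlaps 1 other row of the lncRNA table, so its reads may be divided too.

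RNase MRP RNA had the widest spread of these. It stood at 5962, 17139, 11189 and 3553 CPM in control 7 to 10 and at 3653, 4317, 4787 and 4760 CPM in GK 7 to 10. Control 8 and control 9 were far above every GK library, while control 10 was below all of them, so the groups overlapped. The means were 9461 ± 6030 and 4379 ± 530 CPM (SD, n = 4), a log2 difference of -1.11 ± 0.44 (SE) with adjusted p = 0.230 in edgeR's quasi-likelihood test. Ccdc107, a coiled-coil protein gene 296 bases away, had a log2 difference of -0.37 ± 0.19 (adjusted p = 0.231).

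7SK was the most even of the 3 RNAs. Its values were 4132, 6265, 4753 and 3430 CPM in control 7 to 10 and 4416, 4756, 4382 and 5873 CPM in the GK libraries. The log2 difference was 0.06 ± 0.22 (SE; edgeR adjusted p = 0.922), and every GK value lay within the control range. For 7SL the controls had 1552, 4705, 2763 and 1450 CPM and the GK libraries 2002, 2770, 2764 and 2522 CPM. Control 8 was again the highest, and the log2 difference was -0.06 ± 0.37 (edgeR adjusted p = 0.964).

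**Figure D1:**
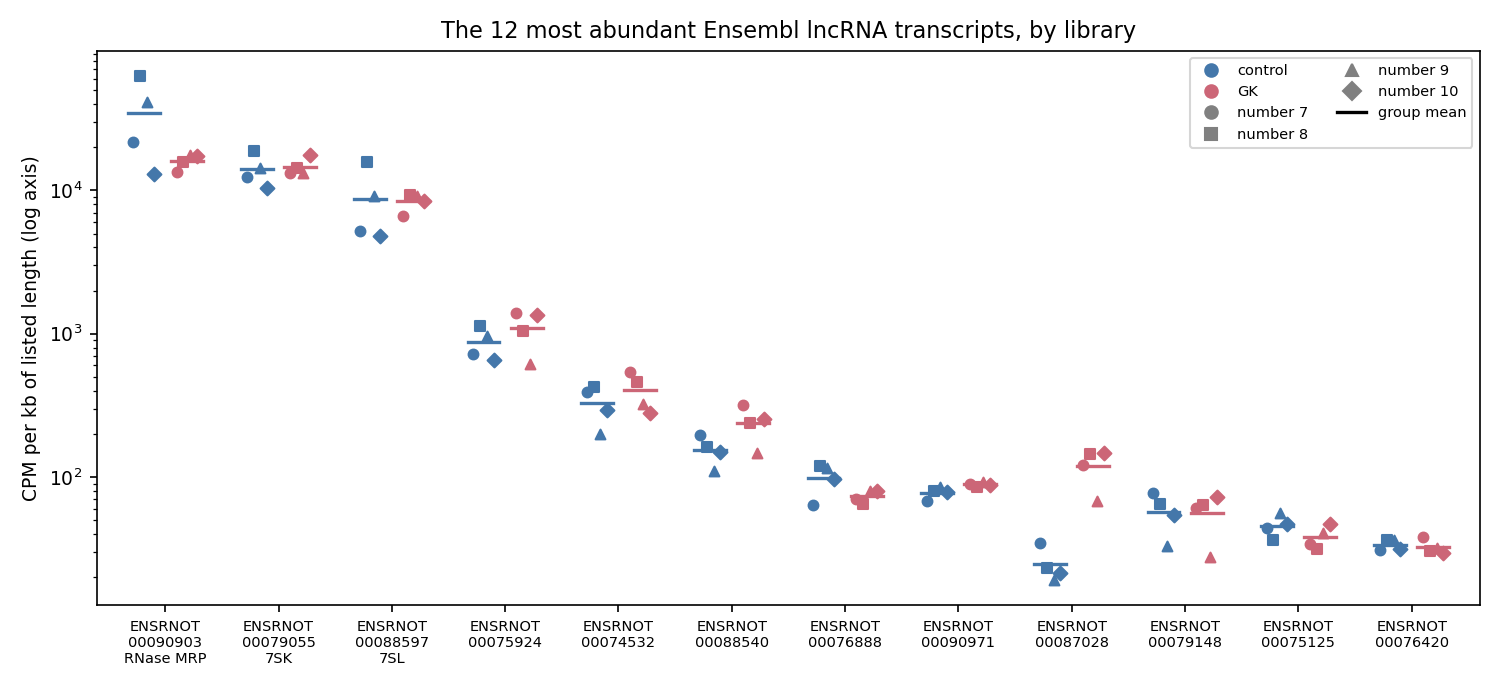
CPM per kilobase of listed length (log axis) for the 12 most abundant Ensembl transcripts. Points are libraries, shaped by number and coloured by group, and bars are group means. RNase MRP, 7SK and 7SL stand above the others, and ENSRNOT00000087028 is the transcript among the 12 that passed the test between groups.

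The share of lncRNA counts that fell on Ensembl transcripts varied most among the controls. It was 1.99%, 3.78%, 2.87% and 1.68% in control 7 to 10 and 1.85%, 2.14%, 2.23% and 2.17% in GK 7 to 10. GK libraries lay between the control extremes. Means were 2.58% ± 0.945 and 2.10% ± 0.168 (SD, n = 4), and the exact two-sided permutation p was 0.429 (adjusted p = 0.771 over 2 tests). Without control 8 the difference shrank from -0.481 to -0.081 percentage points. After RNase MRP, 7SK and 7SL were set aside, a step chosen after seeing the data, the share was 0.835%, 0.919%, 0.898% and 0.815% in controls and 0.932%, 0.952%, 0.963% and 0.919% in GK. All 4 GK values were then above the controls, with GK 10 and control 8 equal to 3 digits, and the exact permutation p was 0.0286, the smallest that the design allows. A planned step left out another set, the 10 most counted transcripts of the whole table. The share in control 8 was then 1.72%, so this share is another quantity than the one above. Its difference between groups was 0.0860 percentage points with p = 0.429 in the exact permutation test.

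**Figure D2:**
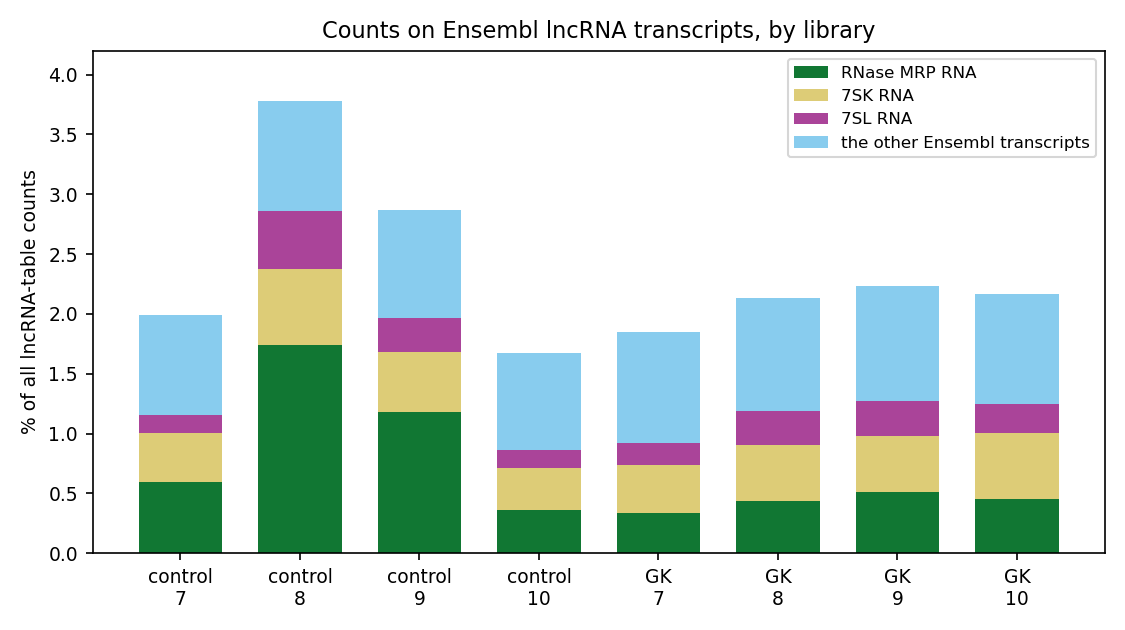
Stacked bars of the percent of all lncRNA-table counts on Ensembl transcripts in each library, divided into RNase MRP, 7SK, 7SL and the rest. Control 8 reaches 3.78% and control 10 stays at 1.68%, while the 4 GK bars lie between 1.85% and 2.23%.

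Behind these 3 RNAs came transcripts at far lower levels, several of them inside protein-coding genes. ENSRNOT00000075924 and ENSRNOT00000074532 lie in Snx3 (chromosome 20), which encodes a sorting nexin of endosomal recycling. Their levels were 611 to 1056 and 234 to 499 CPM in controls and 570 to 1308 and 328 to 637 CPM in GK. Both groups overlapped in each case, with edgeR log2 differences of 0.34 (adjusted p = 0.594) and 0.29 (adjusted p = 0.655). The Snx3 gene row had a log2 difference of 0.23 (edgeR adjusted p = 0.5003). In every library its count was that of the pair added together, so it is no separate measurement of the gene. ENSRNOT00000075924 held 59.4% to 79.4% of the counts of that row. ENSRNOT00000075125 lies in Top2b, the gene of DNA topoisomerase II beta, and had 173 to 264 CPM in controls against 150 to 223 CPM in GK (log2 difference -0.26, adjusted p = 0.550).

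The other abundant transcripts have clone-based gene names. ENSRNOT00000090971 (chromosome 11, 87345865 to 87360080) lies 6541 bases from Aifm3, a mitochondrial apoptosis-inducing factor family gene whose own log2 difference was -0.14 (adjusted p = 0.858). The transcript had 365, 429, 459 and 426 CPM in controls and 482, 462, 500 and 477 CPM in GK. The groups did not overlap, but the log2 difference of 0.19 ± 0.14 (SE) did not pass the test (edgeR adjusted p = 0.527). ENSRNOT00000076888, 7049 bases from the tenascin gene Tnn, which was below the low-count filter, had 248 to 461 CPM in controls and 252 to 310 CPM in GK (log2 difference -0.42, adjusted p = 0.363). ENSRNOT00000079148, 2979 bases from Arnt, which encodes the common partner of hypoxia-inducible factors, ran from 107 to 252 and from 90.5 to 236 CPM, and its lowest value in each group was in library 9. Arnt had a log2 difference of -0.14 (adjusted p = 0.620). ENSRNOT00000088540 had 98.1 to 173 CPM in controls and 130 to 282 CPM in GK (log2 difference 0.64, adjusted p = 0.264).

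The transcripts were spread over 21 chromosomes. Chromosome 1 held 108 of them, chromosome 3 held 59, chromosome 2 held 57, chromosome 7 held 51 and X held 46. For 845 the genomic span exceeded the listed length, as it does for a spliced transcript, and 36 were unspliced by this measure. The median span was 4433 bases and the widest was 380618 bases. Strand is not given in the tables, so antisense and sense transcripts were not told apart.

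Nearly every one of these transcripts also has a row in the gene table. Of the 881, 879 lay within a gene row, 770 had a gene row with exactly the same interval, and 619 had the same count in that row in all 8 libraries. For those 619 the lncRNA table and the gene table hold 1 measurement. The gene row usually bears a clone name: 45 of the transcripts overlapped a gene with a symbol. In 285 cases the transcript overlapped another row of the lncRNA table, and in 149 another Ensembl transcript, so reads may be divided among them.

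Measured to the nearest gene with a symbol that the transcript does not overlap, the median distance was 32183 bases, with quartiles at 6843 and 140156 bases. That gene lay within 1 kb for 80 transcripts, within 10 kb for 274 (31.1%) and beyond 100 kb for 266.

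**Figure D3:**
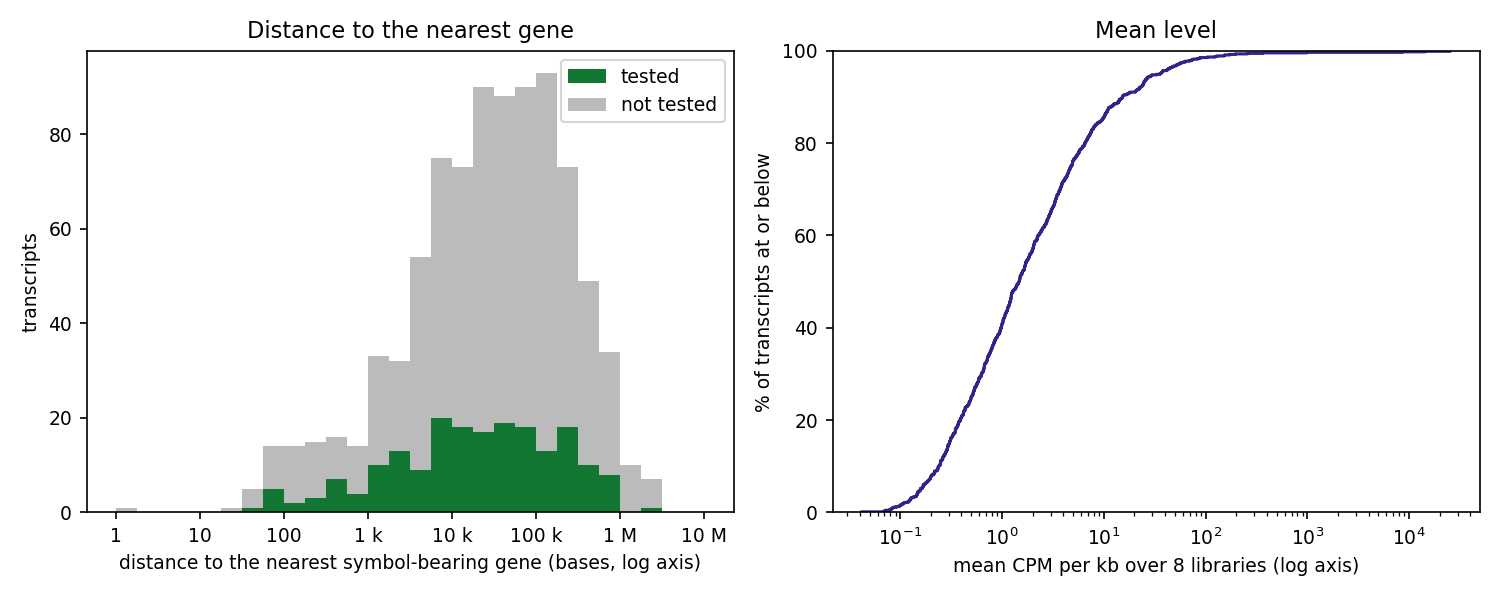
Left, the number of Ensembl transcripts by distance to the nearest symbol-bearing gene (bases, log axis), split by whether the transcript passed the low-count filter. Right, the percent of the 881 transcripts at or below a given mean CPM per kilobase (log axis). The distances centre near the median of 32183 bases, and the median level is 1.47 CPM per kilobase.

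The low-count filter kept 196 of the 881 Ensembl transcripts (22.2%), against 44.1% of the NONRATT and 79.3% of the MSTRG transcripts. In the comparison of GK with control over all 11683 transcripts tested, 2.74% passed an adjusted p of 0.05 (edgeR, quasi-likelihood; Benjamini-Hochberg over all of them), 1.63% higher and 1.11% lower in GK. Among the 196 Ensembl transcripts 10 passed (5.10%), 8 higher and 2 lower in GK. The MSTRG transcripts had 5.17% and the NONRATT transcripts 1.96%, and the difference between these shares was not tested. The median log2 difference was -0.03 for the 196 and -0.01 for all 11683, with 97 of the 196 above 0 and 99 below. The groups did not overlap for 15 of the 196 that were higher and 12 that were lower in GK (13.8% together), against 6.06% and 5.61% of all transcripts tested (11.7% together). All 10 that passed were among them.

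The number of calls moved with single libraries. Leaving out GK 7 gave 3 calls, GK 8 gave 4, GK 10 gave 5, control 7 gave 6 and GK 9 gave 21. The share of all transcripts that passed in these fits is not given here, so the numbers are not read as particular to the Ensembl transcripts. Of the 10 calls, 8 were kept without GK 9, the library with high muscle markers. ENSRNOT00000085640, ENSRNOT00000083119 and ENSRNOT00000087028 passed in all 15 alternative fits. The others are given with the libraries and settings whose change ended the call, save for the replicate block. That fit, which adds the library number to the model, kept these transcripts and ENSRNOT00000091421, 4 of the 10 calls.

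**Figure D4:**
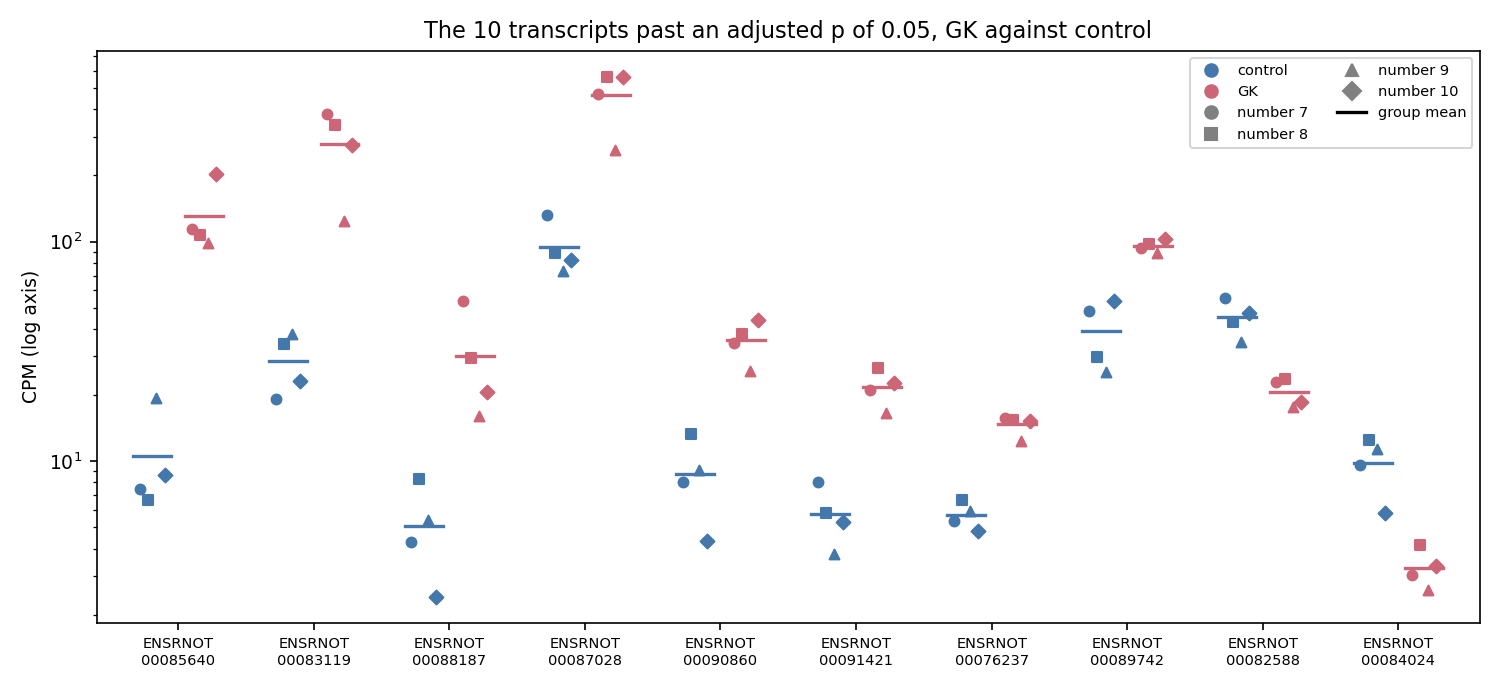
CPM (log axis) of the 10 Ensembl transcripts that passed an adjusted p of 0.05 between GK and control. Points are libraries, shaped by number, and bars are group means. No GK point overlaps the control points in any of the 10 transcripts.

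Among the 10 transcripts that passed, the largest difference was on chromosome 16. ENSRNOT00000085640 (77995246 to 78016003, 3461 bases, gene row AABR07026473.1) had 7.49, 6.64, 19.4 and 8.69 CPM in control 7 to 10 and 114, 108, 98.3 and 202 CPM in GK 7 to 10. Control 9 was the highest control and GK 10 the highest GK library, and the groups were far apart. The means were 10.6 ± 5.96 and 130 ± 48.2 CPM (SD, n = 4), and the log2 difference was 3.61 ± 0.42 (SE; edgeR adjusted p = 0.00511). Its nearest gene with a symbol, 523486 bases away, is Csmd1, a large membrane protein with CUB and sushi domains that regulates complement. The Csmd1 gene row rose as well, from 4.48 ± 1.67 to 40.5 ± 7.86 CPM of the gene table (log2 difference 3.17 ± 0.27, adjusted p = 0.00200), where 7.28% of the 13673 genes tested passed, 3.96% higher and 3.31% lower in GK. Between them lies ENSRNOT00000085058 (78236947 to 78404678, chosen after its values were seen), which had 0 to 6.47 CPM in controls and 11.4 to 16.9 CPM in GK, with adjusted p = 0.0824.

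ENSRNOT00000083119 lies on chromosome 7 (126701934 to 126704689, 2600 bases), 62 bases from Pkdrej, a polycystin-family gene known from sperm, and 6778 bases from Ttc38, which encodes a tetratricopeptide repeat protein. The controls had 19.2, 34.0, 37.7 and 23.2 CPM and the GK libraries 379, 338, 124 and 275 CPM. GK 9 was the lowest GK library and still above every control. The means were 28.5 ± 8.75 and 279 ± 112 CPM (SD, n = 4), a log2 difference of 3.29 ± 0.40 (SE; edgeR adjusted p = 0.00567). Pkdrej was below the low-count filter. Ttc38 had a log2 difference of 0.77 ± 0.46 (adjusted p = 0.309) and Ppara, the nuclear receptor of fatty acid oxidation 20182 bases away, of -0.01 ± 0.54 (adjusted p = 0.992).

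A pair of overlapping transcripts of the gene row AABR07050487.1 on chromosome 5 both rose. They lie between H6pd, the hexose-6-phosphate dehydrogenase of the endoplasmic reticulum, and the orphan receptor gene Gpr157. ENSRNOT00000087028 (167061794 to 167087844, 3852 bases) had 133, 88.8, 73.3 and 82.6 CPM in controls and 469, 561, 260 and 562 CPM in GK. The shorter ENSRNOT00000091421 (167071397 to 167081868, 1506 bases) had 8.02, 5.81, 3.77 and 5.31 CPM against 21.2, 26.6, 16.6 and 22.6 CPM. GK 9 was the lowest GK library for both and the groups did not overlap. Log2 differences were 2.29 ± 0.30 (SE; adjusted p = 0.00895) and 1.91 ± 0.30 (adjusted p = 0.0171) in edgeR's test. The call of the shorter one was lost without GK 7 (adjusted p = 0.0524), GK 8 (0.0610) or control 10 (0.0620). H6pd (log2 difference 0.29, adjusted p = 0.289) and Gpr157 (0.39, adjusted p = 0.562) did not pass.

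GK 9 was the lowest GK library for these 4 transcripts and for all the others that passed, those that fell included. It also had the lowest sum of brown adipocyte markers among the GK libraries and the highest sum of muscle markers, 11209 CPM. Among controls, control 9 had the lowest brown adipocyte sum and was the highest control for ENSRNOT00000085640 and ENSRNOT00000083119, and the lowest for the pair on chromosome 5. The summed brown adipocyte markers were 4785, 4825, 1403 and 4164 CPM in GK 7 to 10, and 1537, 2886, 500 and 815 CPM in control 7 to 10. Of the 5 listed brown adipocyte genes, 4 were tested and none passed, and Dio2 was below the low-count filter with means of 0.501 CPM in controls and 2.55 CPM in GK. Among the 5 general adipocyte genes Cidec rose. The part of adipocytes and muscle in the differences was not tested.

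ENSRNOT00000088187 lies 387 bases from Pde3b on chromosome 1 (183884015 to 183892454, 1485 bases). Pde3b encodes the insulin-regulated cyclic nucleotide phosphodiesterase of adipocytes and hepatocytes. The transcript had 4.28, 8.30, 5.39 and 2.41 CPM in controls and 53.8, 29.6, 16.04 and 20.6 CPM in GK. GK 7 was the highest and GK 9 the lowest of the GK libraries, and the groups did not overlap. The log2 difference was 2.58 ± 0.50 (SE; edgeR adjusted p = 0.0325). Pde3b itself had 247, 228, 149 and 119 CPM of the gene table in controls and 574, 481, 269 and 548 CPM in GK (log2 difference 1.33 ± 0.32, adjusted p = 0.0428). The call of the transcript was lost on leaving out any one library except GK 9, with adjusted p between 0.0512 and 0.0932, and without a low-count filter (0.0696).

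ENSRNOT00000090860, on chromosome 7 (97356333 to 97462928) between the hyaluronan synthase gene Has2 and the transcriptional repressor gene Zhx2, had 8.02, 13.3, 9.16 and 4.35 CPM in controls and 34.5, 37.8, 25.9 and 43.9 CPM in GK. Every GK value was above every control. The log2 difference was 2.05 ± 0.35 (SE; edgeR adjusted p = 0.0222), and it no longer passed when any of GK 7, GK 8, GK 10, control 7 or control 9 was left out (adjusted p between 0.0514 and 0.0707). Zhx2, 96913 bases away, had a log2 difference of -0.18 (adjusted p = 0.434) and Has2, 892284 bases away, of -0.44 (adjusted p = 0.695). The same gene row, AABR07057997.1, holds the scarcer ENSRNOT00000082351 and ENSRNOT00000091294, which did not pass the low-count filter.

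ENSRNOT00000076237 (chromosome 1, 260645040 to 260679065) lies 6125 bases from Pik3ap1, an adaptor of phosphoinositide 3-kinase in leukocytes. It had 5.35, 6.64, 5.93 and 4.83 CPM in controls and 15.7, 15.4, 12.4 and 15.3 CPM in GK. The spread within each group was small, and the groups were clearly separate. The log2 difference was 1.37 ± 0.24 (SE; edgeR adjusted p = 0.0237), with adjusted p between 0.0557 and 0.0889 without GK 7, GK 8, GK 10, control 7, control 9 or control 10. Without a low-count filter it was 0.0556. Pik3ap1 had a log2 difference of 0.19 (adjusted p = 0.708).

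The transcripts that fell were both on loci far from symbol-bearing genes. ENSRNOT00000082588 (chromosome 1, 11834038 to 11840581) lies 982782 bases from Cited2, a coactivator-binding regulator. The transcript had 55.1, 43.1, 35.0 and 47.3 CPM in controls and 23.0, 23.7, 17.6 and 18.6 CPM in GK, so the lowest control was above the highest GK library. The log2 difference was -1.12 ± 0.22 (SE; edgeR, adjusted p = 0.0354). This call was lost without any one library except control 9, with adjusted p between 0.0515 and 0.109, and without a low-count filter (0.0884). Cited2 fell as well, from 44.7 ± 6.66 to 24.5 ± 5.60 CPM of the gene table (SD, n = 4; log2 difference -0.87 ± 0.19, edgeR adjusted p = 0.0320). ENSRNOT00000084024 (chromosome 15, 87540751 to 87561581), 142759 bases from the sciellin gene Scel, had 9.62, 12.4, 11.3 and 5.79 CPM in controls and 3.02, 4.14, 2.59 and 3.32 CPM in GK. Its log2 difference was -1.55 ± 0.33 (edgeR adjusted p = 0.0470), and no fit with 1 library left out kept the call (adjusted p between 0.0552 and 0.159), nor did DESeq2 (0.0501), a fit without both libraries numbered 9 (0.124) or one without a low-count filter (0.101). Scel had a log2 difference of -0.72 ± 1.02 (edgeR adjusted p = 0.674).

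At the Tug1 locus overlapping transcripts gave different values. RefSeq places Tug1, an lncRNA first described in the retina and present in many tissues, between Smtn, which encodes smoothelin, and Morc2, a chromatin ATPase gene. On chromosome 14, 2 Ensembl transcripts lie in that interval. The long one, ENSRNOT00000076420 (83878295 to 83887584, 5121 bases), was even, with 158, 186, 185 and 162 CPM in controls and 195, 157, 162 and 152 CPM in GK (log2 difference -0.05 ± 0.16, edgeR adjusted p = 0.907). The shorter ENSRNOT00000089742 lies inside it (83881371 to 83885791, 1889 bases) and had 48.1, 29.9, 25.3 and 53.6 CPM in controls against 93.1, 97.6, 88.5 and 102 CPM in GK. All GK libraries were above all controls, with a log2 difference of 1.28 ± 0.27 (SE; edgeR adjusted p = 0.0428). The call of the shorter transcript was lost without any one library except GK 9, with adjusted p between 0.0580 and 0.122. It was also lost with the factors of the gene table (0.0993), without the 10 most counted transcripts (0.0524), without both libraries numbered 9 (0.0646) and without a low-count filter (0.0883), and 3 of the 15 alternatives kept it. Their shared gene row, Rn60_14_0846.1, had a log2 difference of 0.25 ± 0.17 (adjusted p = 0.349), and a difference between the overlapping transcripts was not tested. Morc2, 1505 bases from the long transcript, had a log2 difference of -0.41 ± 0.14 (adjusted p = 0.0987).

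Other well-known lncRNAs were looked for by name and by their RefSeq neighbours. Between Dlk1 and Rtl1, where RefSeq places Meg3, lay ENSRNOT00000088572 and ENSRNOT00000090095, at 0 to 2.42 and 0.483 to 0.830 CPM in controls and at 0 to 12.9 and 0.517 to 0.665 CPM in GK. Neither passed the low-count filter. Each overlaps 10 other rows of the lncRNA table. Their shared gene row, AABR07065531.5, had 14, 17, 41 and 72 counts in control 7 to 10 and 12, 32, 360 and 21 in GK 7 to 10. The low levels of these transcripts are therefore not the level of the whole locus. A pair between Lbp and Ralgapb lay 11904 bases from the row named Snhg11 and had at most 5.88 CPM. No Ensembl transcript of the lncRNA table was matched to H19, Gas5, Miat, Pvt1, Terc or Carmn in this search. The search skipped neighbours that lie far apart, so a missing match does not show absence. Malat1, Neat1 and Norad, among others, were not found under these names in RefSeq and could not be looked for by neighbours.

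There were 9 gene rows with 3 or more of the transcripts. The row AABR07069473.1 on chromosome 8 (23492466 to 23562299) holds a pair with the same interval and listed lengths of 2951 and 2874 bases, among 3 in all. ENSRNOT00000083919 had 13.5 to 21.9 CPM in controls and 19.9 to 34.1 CPM in GK (log2 difference 0.60 ± 0.27, edgeR adjusted p = 0.296). ENSRNOT00000078748 had 20.3, 21.6, 27.5 and 16.9 CPM in controls and 4.84, 10.6, 9.83 and 4.65 CPM in GK, with no overlap between groups (log2 difference -1.51 ± 0.35, adjusted p = 0.0592). The gene row had a log2 difference of -0.28 (adjusted p = 0.477).

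**Figure D5:**
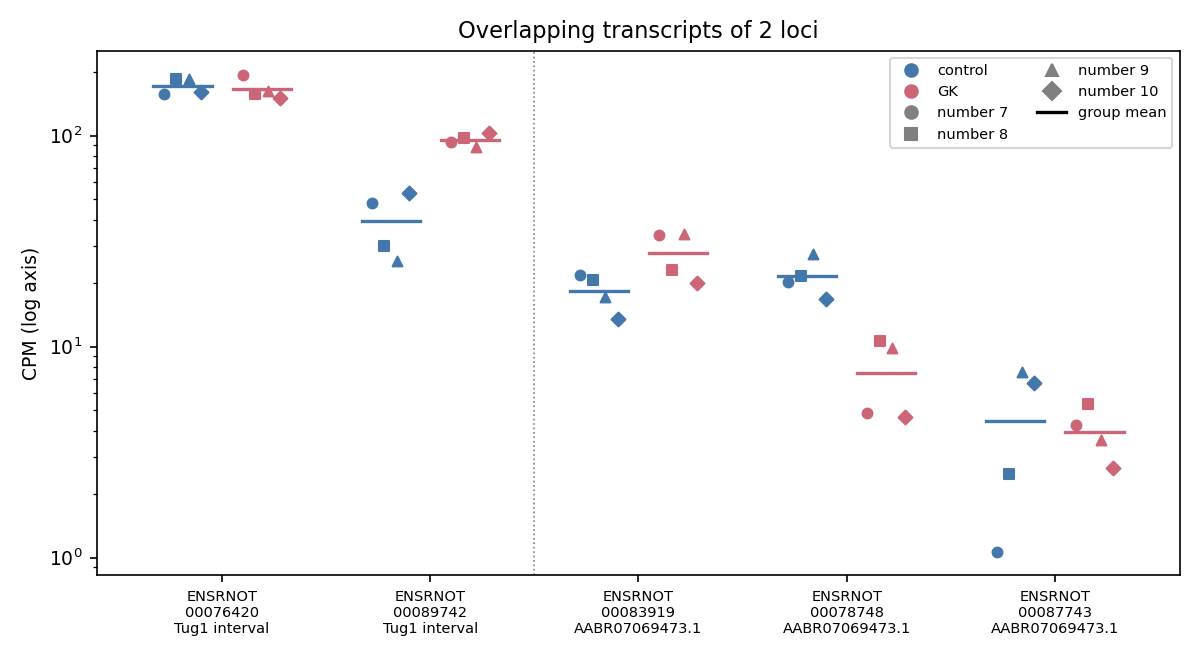
CPM (log axis) of overlapping Ensembl transcripts at the Tug1 interval and at AABR07069473.1. Points are libraries and bars are group means. ENSRNOT00000089742 is higher in all 4 GK libraries while the transcript around it is even, and ENSRNOT00000078748 is lower in all 4 GK libraries.

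In the rat MHC class I region on chromosome 20, the row LOC102549726 overlaps RT1-CE genes and holds 3 transcripts. ENSRNOT00000087471 had 19.2, 28.2, 30.2 and 21.7 CPM in controls and 3.02, 6.50, 19.7 and 7.31 CPM in GK. GK 9 lay just above control 7, the lowest control, and the other GK libraries stayed below the controls. The log2 difference was -1.42 ± 0.50 (SE; edgeR adjusted p = 0.181). Without GK 9, the only GK library that overlapped the controls, it was -2.12 (adjusted p = 0.0220). RT1 genes are near-identical copies and differ between strains, so these counts are uncertain. A set of 3 transcripts overlapping the complement gene C4a did not pass the low-count filter. At Rn60_1_1359.1, 4 transcripts beside the chromatin remodeller gene Chd2 were measured and none passed. Their log2 differences lay between -0.98 and 0.01. At Rn60_6_1241.2, ENSRNOT00000076887 had 0 counts in 3 controls, 17.2 CPM in control 9 and 8.64 to 32.5 CPM in GK. It did not pass with all libraries (adjusted p = 0.406) and passed without control 9, the only control with counts (adjusted p = 0.0416). For this transcript and ENSRNOT00000087471, the fit that passed drops the library that went the other way, so it is no separate support.

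The nearest symbol-bearing genes of the 196 tested transcripts were then compared between groups in the gene table. Of 141 such genes that passed its low-count filter, 3 rose and 9 fell (8.51%), against 7.28% of all genes tested. Within 10 kb, 61 neighbours were tested, of which 2 rose and 4 fell (9.84%). Among them were Pde3b and the peptide transporter gene Tap2, which were higher in GK, and Gcnt1, Col1a1 and Chek2, which were lower. Apart from ENSRNOT00000088187 beside Pde3b, the transcripts next to these genes did not pass. ENSRNOT00000088573, 2497 bases from the collagen gene Col1a1, had a log2 difference of -1.20 ± 0.78 (adjusted p = 0.460) where Col1a1 fell by 2.59 ± 0.54 on the log2 scale (adjusted p = 0.0295). ENSRNOT00000088585, 812 bases from the glycosyltransferase gene Gcnt1, had -1.22 ± 0.50 (adjusted p = 0.248), and Gcnt1 fell by 1.36 ± 0.28 (adjusted p = 0.0300). Libraries and tests are shared between the tables, so these values stand side by side as descriptions.

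The authors' deposited table marks 30 of the 881 Ensembl transcripts (3.41%) as changed, 19 up and 11 down, where it marks 3.14% of all 24300 transcripts, 1.93% up and 1.21% down. Of these 30, 19 did not pass the low-count filter used here, and 6 of the other 11 passed the test. ENSRNOT00000088428 is one of those that did not (adjusted p = 0.0783): it had 269, 221, 11.3 and 206 CPM in controls and 20.6, 26.6, 4.14 and 6.65 CPM in GK. Control 9 lay among the GK libraries. It was singled out after its values were seen, as were the scarce transcripts described next.

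Several of the scarce transcripts had counts in 1 group alone or nearly so. Of the 881, 95 had counts in GK only and 90 in controls only, of which 8 and 10 had over 10 counts. As 357 of the 881 had fewer than 10 counts over all libraries, counts in 1 group alone can come from scarcity. The share over all transcripts is not given here, so these numbers are not read as a result about the Ensembl transcripts. ENSRNOT00000078751 had 18, 3, 10 and 15 counts in controls and 0 in all GK libraries, which makes it at least 14.9-fold lower in GK with a floor of 3 counts over the group. ENSRNOT00000085586 had 0 counts in all controls and 25, 17, 4 and 5 in GK, at least 17.5-fold higher. ENSRNOT00000076931, 164 bases from the DNA ligase gene Lig3, had 18, 15, 22 and 7 counts in controls and 0, 1, 0 and 0 in GK. The ratio was 60.1-fold, with a 95% counting interval of 10.4 to 2410 that covers counting error only. ENSRNOT00000088158, 348 bases from the junction gene Plekha7, had 1, 0, 0 and 0 counts against 11, 12, 10 and 16, a ratio of 50.6 (counting interval 8.66 to 2038). Without a low-count filter, edgeR gave adjusted p = 0.0336 and 0.0236 for the last pair and 0.0607 and 0.113 for the first. ENSRNOT00000078200, 24395 bases from the phosphatidate phosphatase gene Lpin1, also passed without the filter (adjusted p = 0.0236), with 2, 1, 2 and 1 counts in controls and 25, 31, 9 and 25 in GK.

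The authors' deposited pairs of changed lncRNAs and genes include 9 Ensembl transcripts, with 6 pairs named cis and 29 named trans. The 6 cis genes lay 164 to 6778 bases from the transcript. Of those genes, Lpl, the lipoprotein lipase gene 472 bases from ENSRNOT00000083625, rose with a log2 difference of 1.81 ± 0.44 (edgeR adjusted p = 0.0459). Pde3b rose too, as given above, and so did LOC100910259, 2249 bases from ENSRNOT00000088930 (log2 difference 4.53 ± 0.82, adjusted p = 0.0204). Plekha7 (0.42 ± 0.31, adjusted p = 0.396), Lig3 (-0.12 ± 0.16, adjusted p = 0.639) and Ttc38 did not pass. ENSRNOT00000083625 had 1, 0, 4 and 3 counts in controls and 22, 8, 10 and 8 in GK, a ratio of 6.19 (95% counting interval 2.90 to 15.2).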

How the data were processed

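RNA of rat thoracic aorta was sequenced in 8 libraries, 4 control and 4 GK. The authors deposited read counts per gene and per lncRNA transcript as whole numbers, with listed transcript lengths, and q-values, per the file headers, from a comparison that the name of their table gives as edgeR. Bowtie 0.12.2 and the mouse builds mm8 and mm9 stand in the submitters' processing notes with no role. The aligner settings, the annotation and the build of the coordinates are not given in the sources used here.

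Counts were tested with edgeR 4.0.16 in R 4.3.3 (filterByExpr, TMM factors, quasi-likelihood F test, Benjamini-Hochberg adjustment over all rows of a table, threshold 0.05), after a test on simulated data. The SE printed with an edgeR log2 difference is its absolute size divided by the square root of the F statistic, since the test gives no SE itself. CPM was computed on the table's total times its TMM factor. Shares and numbers of transcripts detected were compared with exact permutation tests. DESeq2, other scalings, no filter and fits without single libraries were the alternatives. The gene row of a transcript is the one with the same interval, or the shortest that contains it. The nearest gene is the closest one with a symbol that does not overlap. Named were the 12 most abundant transcripts, all that passed, matches to a list of known lncRNAs, and loci with 3 or more. Members and lists were chosen with earlier results of these data known. Promoter sequences and neighbour orders come from RefSeq (GRCr8). The result of 1 neighbouring gene that passed the test is left out here.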

Additional observations from a re-analysis of the deposited data

Results flagged for a closer look

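Among the 12 most abundant transcripts and the 10 that passed the test, each group of 4 libraries was checked for a library far from the others by Dixon's criterion, in 42 groups in all. Chance flags about 1 in 20 groups, and 3 libraries stood out. ENSRNOT00000085640 did so in both groups: control 9 had 19.4 CPM where the nearest control had 8.69 CPM, and GK 10 had 202 CPM where the nearest GK library had 114 CPM. ENSRNOT00000076237 had 12.4 CPM in GK 9, below the nearest GK library at 15.3 CPM.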

How the results depend on the processing

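The number of Ensembl transcripts that passed was 10 of 196 tested, and 31 of 322 tested with DESeq2 (22 higher, 9 lower). It was 5 with the replicate block and 21 without both libraries numbered 9. Leaving out 1 library gave 3 to 21. The share of all transcripts that passed in each alternative fit is not given here, so these numbers are not read as particular to the Ensembl transcripts. The causes were not tested. The number was 10 with RLE size factors and 10 (7 higher, 3 lower) with the totals and factors of the gene table. It was 9 without the 10 most counted transcripts and 8 of 881 tested without a low-count filter. The gene table's factors moved the median of all transcripts to -0.12 on the log2 scale. The 10 calls kept their direction in all 15 alternatives. Genes that passed numbered 995, and 2433 with DESeq2, 654 without a filter, 2372 with the replicate block and 2534 without both libraries numbered 9, with 135 to 3046 on leaving out 1 library. The library numbers were not taken to pair the samples. Deviations of libraries 7, 8, 9 and 10 correlated with those of the same number at 0.091, 0.051, 0.270 and -0.034 in the lncRNA table and at 0.454, 0.147, 0.568 and -0.014 in the gene table, and control 8 correlated best with GK 10 in both. Under the replicate block 4 of the 10 calls were kept, and the adjusted p of the others was 0.0554 to 0.0835. With only genes within 10 kb, 6 neighbours passed in place of 12.

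The difference in share was -0.481 percentage points, 0.0860 without the 10 most counted transcripts and 0.0744 without RNase MRP, 7SK and 7SL (chosen after seeing the data), and -0.781 to -0.0810 on leaving out 1 library. The difference in detected transcripts was 13.8, and -14.6 to 32.4 on leaving out 1 library. At this depth, 685 of the 881 transcripts were below the filter, and a difference in them was mostly not detectable.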
